A study of Homo sapiens with 16 samples.

Results

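The regions described here are 565 stretches of chromatin that passed the limits for p65 binding in HT29 mock, HT29 ERβ and SW480 ERβ cells and did not pass them in SW480 mock cells, out of 6420 regions that passed in at least 1 of these 4 groups. HT29 and SW480 are human colorectal adenocarcinoma lines. Mock cells were stably transfected with an empty vector, and ERβ cells with estrogen receptor β. Each group had 3 p65 ChIP libraries and 1 input library, and all cells received TNFα at 30 ng/ml for 30 minutes, and untreated cells were not analysed here. The methods call the replicates biological, and the labels say neither whether they were separate cultures nor whether a transfected line was a clone or a pool, so p-values measure the spread between these libraries alone. The antibody and TNFα are also listed on the input libraries, which were read as inputs, and the inputs of the ERβ cells belong to another set of libraries by the methods.

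A 200-bp bin counted as bound in a group when at least 2 of its 3 ChIP libraries had a mean signal of 2 or more, at least 4 times the signal of the group's own input (read as 0.35 where it was lower) and no less than 4 times the mean over 10 kb around it. Signal is the density of sequenced tags per base, which the authors scaled to 10 M tags per library (M, 1e6), so a value of 2 stands for 2 of these tags over a base. Bound bins within 200 bp were joined over the groups. Since the rule was applied to the same 12 ChIP libraries, the regions were chosen by their SW480, HT29 and input signal, and every SW480 difference below is a description of that choice, with no test. The 565 regions were 8.80% of all regions. By comparison, 581 regions passed in all 4 groups, 354 in both HT29 groups alone and 531 in HT29 mock and SW480 ERβ alone.

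p65, encoded by RELA, is a subunit of the transcription factor NFκB and one of those that activate transcription. In resting cells it is held in the cytoplasm by IκB proteins, and TNFα activates the IκB kinase complex, after which IκB is degraded and p65 enters the nucleus and binds κB sites in promoters and enhancers. In the intestinal epithelium NFκB controls chemokines, survival genes and its own inhibitors, and ERβ is a nuclear receptor that is present in normal colon epithelium.

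The strongest 200-bp bins of 5 named regions are shown on the plus strand of GRCh38, with matches to the κB consensus in capitals. They are shown because they were among the regions with the largest SW480 difference (TANC1 and TNFRSF4), had high SW480 ERβ signal (GSTP1) or lay at signalling genes (EGFR and CCL28).
TANC1, intron, chr2:159099201-159099400: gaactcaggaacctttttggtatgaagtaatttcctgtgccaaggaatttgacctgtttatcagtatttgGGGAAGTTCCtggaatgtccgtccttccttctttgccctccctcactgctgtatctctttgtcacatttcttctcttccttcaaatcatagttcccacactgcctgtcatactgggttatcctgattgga
TNFRSF4, between genes, chr1:1215201-1215400: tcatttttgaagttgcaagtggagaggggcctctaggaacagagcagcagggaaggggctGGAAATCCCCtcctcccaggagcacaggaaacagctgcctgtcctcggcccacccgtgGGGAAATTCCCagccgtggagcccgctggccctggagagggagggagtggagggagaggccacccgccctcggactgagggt
GSTP1, promoter, chr11:67583401-67583600: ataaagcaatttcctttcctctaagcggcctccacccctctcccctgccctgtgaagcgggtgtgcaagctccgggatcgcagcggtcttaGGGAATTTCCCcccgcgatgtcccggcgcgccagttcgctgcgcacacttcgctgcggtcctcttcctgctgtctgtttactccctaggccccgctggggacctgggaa
EGFR, intron, chr7:55065201-55065400: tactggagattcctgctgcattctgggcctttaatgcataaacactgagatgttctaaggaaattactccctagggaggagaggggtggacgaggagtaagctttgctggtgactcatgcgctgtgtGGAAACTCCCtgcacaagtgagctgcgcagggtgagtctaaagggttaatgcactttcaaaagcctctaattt
CCL28, between genes, chr5:43422401-43422600: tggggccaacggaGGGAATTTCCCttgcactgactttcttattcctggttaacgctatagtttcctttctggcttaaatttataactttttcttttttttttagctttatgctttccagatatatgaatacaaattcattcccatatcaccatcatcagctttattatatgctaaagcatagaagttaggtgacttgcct
TNFRSF4 held 3 matches, of which 2 overlapped, and the GSTP1 and CCL28 bins each held the same 2 overlapping words, GGGAATTTCC and GGAATTTCCC.

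Of the 565 regions, 384 held a match to the κB consensus in their strongest bin (68.0%, 95% Clopper-Pearson interval 63.9 to 71.8). Windows of the same length 1 kb to either side held one in 5.31%, and the bins of all 6420 regions in 56.4%. The share was 74.7% (71.0 to 78.2) in the regions bound in all 4 groups, and 65.2% (60.0 to 70.2) in those bound in HT29 alone. The matches of the 565 regions made up 59 different words. The most frequent were GGAATTCCCC and GGAATTTCCC, each in 46 regions, followed by GGAAATTCCC in 43, GGGAATTCCC in 39 and GGAAAGTCCC in 32, each counted together with its reverse complement. GGAAAGTCCC was present in 5.66% of the 565 regions and in 9.81% of the regions bound in all 4 groups, beside 3.94% of all regions. GGGAATTCCC, which reads the same on both strands, was present in 6.90% and 4.48%, beside 3.47% of all regions. A match is a sequence description and does not show that p65 was held at that site.

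Promoters were taken from 1 kb before to 100 bp after a transcription start site (TSS). There the share with a κB match was lower than in the regions bound in all 4 groups. It was higher than that of all regions at promoters, in introns and between genes. A match was found in 139 of the 216 promoter regions of the 565 (64.3%, 57.6 to 70.7), against 191 of 235 promoter regions bound in all 4 groups (81.3%, 75.7 to 86.0). It was found in 55.1% (52.8 to 57.4) of the promoter regions among all 6420, in 51.7% (38.2 to 65.05) of those bound in HT29 alone and in 58.6% (52.4 to 64.7) of those bound in HT29 mock and SW480 ERβ alone. In introns the shares of the 565 regions and of those bound in all 4 groups were 68.5% (61.6 to 74.9) and 70.8% (64.0 to 77.1). Between genes they were 71.9% (63.0 to 79.7) and 68.6% (59.5 to 76.9). All 6420 regions had 56.2% (54.3 to 58.1) in introns and 56.8% (54.25 to 59.3) between genes. The intervals of the 565 regions and of those bound in all 4 groups lay apart at promoters and overlapped in introns and between genes, and the difference between these places was not tested. These intervals cover counting error alone, and the regions of a class share the libraries by which they were called.

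Other sequence words were counted on both strands of the same bins. The AP-1 words TGACTCA and TGAGTCA were present in 12.6% (9.95 to 15.6) of the 565 regions, in 3.63% of their flanks and in 16.9% (13.9 to 20.2) of the regions bound in all 4 groups, beside 12.1% of all 6420. The NFAT word TGGAAAA was present in 9.20% (6.95 to 11.9), against 5.16% (3.51 to 7.29) of the regions bound in all 4 groups and 12.99% (9.67 to 16.9) of those bound in HT29 alone, beside 8.21% of all regions. This word shares letters with κB words that hold GGAAAA. The RUNX words TGTGGTT and TGTGGTC were present in 4.43% (2.88 to 6.46) of the 565 regions, beside 6.99% of their flanks and 11.2% of all 6420 regions. The shares in the other classes compared were also below that of all regions, with 5.08% (3.04 to 7.92) of the regions bound in HT29 alone, 4.52% (2.92 to 6.65) of those bound in HT29 mock and SW480 ERβ alone and 7.92% (5.86 to 10.4) of those bound in all 4 groups. The FOXA word TGTTTAC was present in 4.07% (2.60 to 6.05), in 7.40% (5.41 to 9.84) of the regions bound in all 4 groups and in 9.04% (6.26 to 12.5) of those bound in HT29 alone, beside 4.92% of all regions. The ETS word CCGGAAG was present in 3.54% and the TEAD word GGAATGT in 4.60%, and the interferon-response word, GAAA repeated after 2 bases, in 2.66%. The GC box GGGCGG was present in 25.5%, and CCAAT in 21.4%. All regions held these in 3.99%, 6.06%, 2.77%, 23.9% and 19.2%, in the same order. An estrogen response element, GGTCA and TGACC parted by 3 bases, was present in 0 of 565 bins, where counting error allows a share of up to 0.651% (exact Clopper-Pearson upper bound), and in 2 of the 6420. That these letters were not found says nothing of ERβ at the regions.

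**Figure D1:**
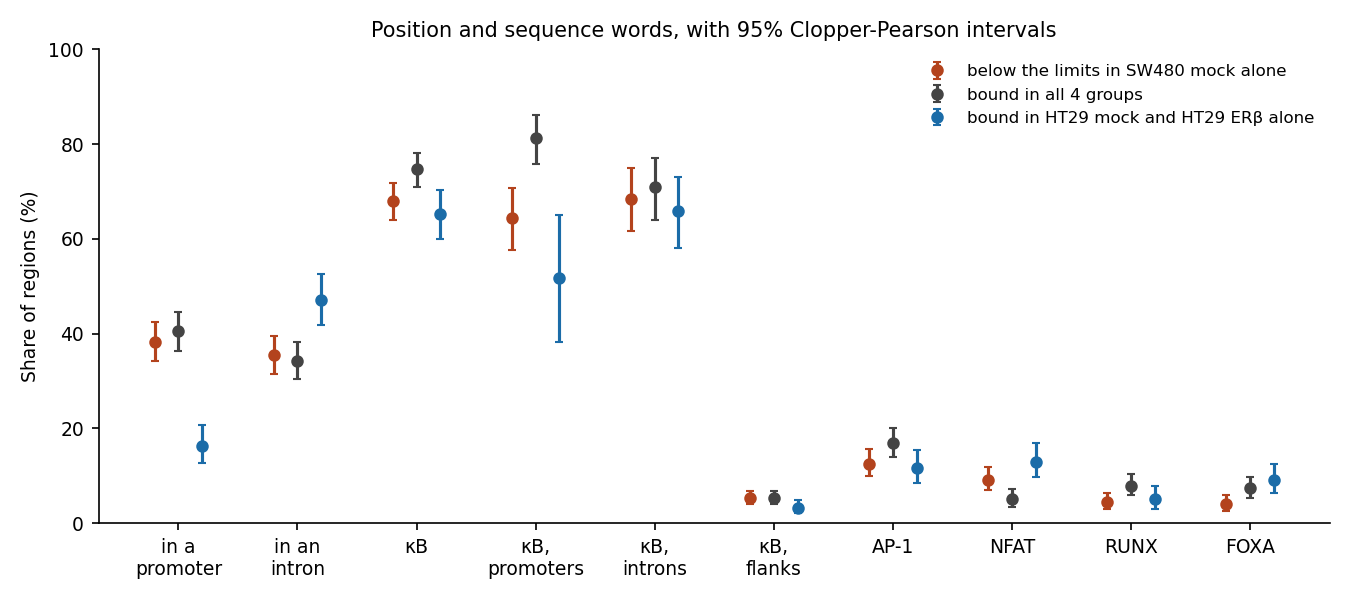
Share of regions (percent, vertical axis) in a promoter or an intron, or with a sequence word in the strongest 200-bp bin, for the 565 regions below the limits in SW480 mock alone, the 581 regions bound in all 4 groups and the 354 bound in both HT29 groups alone. Points are shares and bars 95% Clopper-Pearson intervals. κB shares at promoters stood at 64.3% in the 565 regions and 81.3% in those bound in all 4 groups, while κB shares in the flanks were 5.31% and 5.25%.

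By position, 216 of the 565 regions lay in promoters (38.2%, 34.2 to 42.4), 200 in introns (35.4%), 121 between genes (21.4%) and 28 in exons. The promoter share was 40.5% (36.4 to 44.6) in the regions bound in all 4 groups, which overlaps with that of the 565, and 16.4% (12.7 to 20.7) in the regions bound in HT29 alone, which does not. It was 49.2% (44.8 to 53.5) in the regions bound in HT29 mock and SW480 ERβ alone and 29.4% (28.3 to 30.5) in all 6420 regions. The rule used the SW480 mock input, which was highest at promoters, so nothing is read from the gap to all regions. In SW480 mock, 168 of the 565 regions missed the limit over the input alone. Promoters made up 28.5% (24.1 to 33.2) of the other 397. The strongest bins had a median GC content of 55%, between 46.5% in HT29 alone and 58.5% in the regions bound in all 4 groups. The median length was 400 bp in each of these classes. The regions lay on every chromosome tested (1 to 22 and X), with most on chromosome 1 (75 regions, 13.3%, against 9.24% of all regions). Another region bound in SW480 mock cells lay within 10 kb of 10 of the 565 regions (1.77%) and within 100 kb of 101 (17.9%). Among the regions bound in all 4 groups, 5.68% and 24.3% had such a neighbour, and among all regions 3.04% and 18.0%.

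The libraries differed in ways that the groups did not explain. At the 565 regions HT29 replicate 1 had the highest signal in both HT29 groups, and SW480 ERβ replicate 1 the lowest of its group. The tracks of HT29, apart from the ERβ input, carry a project tag that the SW480 tracks lack, so cell line and project cannot be told apart. As a check of the labels, the ratio of signal in coding exons of ESR2, the gene of ERβ, to that in its introns was 2.40 to 3.09 in SW480 ERβ ChIP libraries against 1.32 to 1.62 in SW480 mock, and 4.05 to 6.94 in HT29 ERβ against 1.05 to 1.34 in HT29 mock. The tracks are scaled to a common total, and no counting error of a signal is given here.

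At the 565 regions SW480 mock cells were below the limits but mostly not empty. The median signal was 6.67, 3.37 and 3.56 in HT29 mock replicates 1, 2 and 3, and 5.81, 2.93 and 2.74 in HT29 ERβ. It was 1.47, 1.87 and 2.03 in the SW480 mock libraries and 2.66, 5.18 and 4.57 in the SW480 ERβ libraries. All 3 SW480 mock medians were thus lower than every other median. Yet they stood 3.19, 4.10 and 4.52 times above the signal of the surrounding 10 kb, which had medians of 0.439 to 0.449. The mean of the SW480 mock libraries was at least 2 times the surroundings at 510 of the 565 regions and at least 4 times at 281. It was below 1 at 83 regions. At the regions bound in HT29 mock and SW480 ERβ alone, the SW480 mock libraries stood 2.96, 3.95 and 4.10 times above their surroundings by median.

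**Figure D2:**
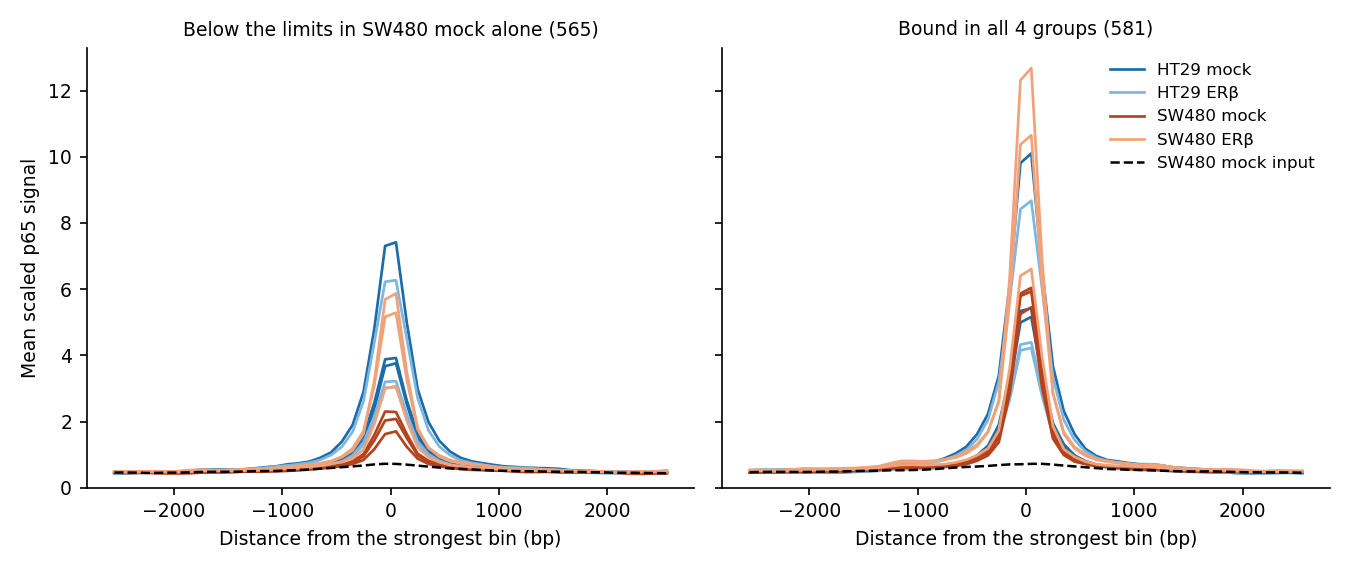
Mean scaled p65 signal (vertical axis) by distance in bp from the strongest bin (horizontal axis) at the 565 regions below the limits in SW480 mock alone (left) and the 581 regions bound in all 4 groups (right), with 1 line per ChIP library and a dashed line for the SW480 mock input. SW480 mock libraries form a peak at the centre in both panels, and in the left panel it is the lowest of the 4 groups.

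The classes are defined by which groups passed the limits, so the rule sets apart the levels of a group that passed in one class and not in another. It does not by itself fix the order where a group passed in both classes. All levels are given as a description. The median over regions of the SW480 mock mean was 1.84 at the 565 regions, 4.75 at the regions bound in all 4 groups, 0.558 at those bound in HT29 alone and 1.42 over all 6420 regions. The corresponding SW480 ERβ medians were 4.15, 8.61, 1.104 and 3.14. In HT29 mock cells the medians were 4.49, 6.16, 4.12 and 1.95. The regions bound in HT29 mock and SW480 ERβ alone had medians of 1.73 in SW480 mock, 3.73 in SW480 ERβ and 3.01 in HT29 mock.

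**Figure D3:**
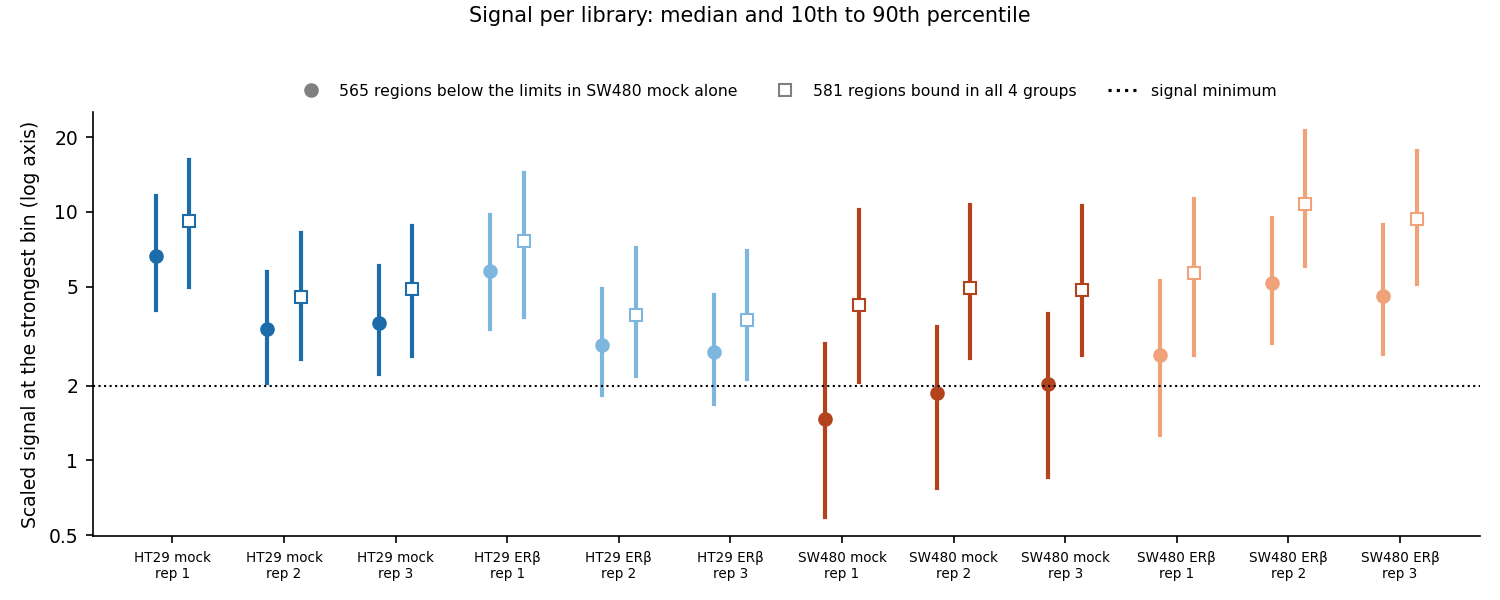
Scaled p65 signal at the strongest bin (log axis) in each of the 12 ChIP libraries. Filled circles are medians over the 565 regions below the limits in SW480 mock alone, open squares medians over the 581 regions bound in all 4 groups, bars run from the 10th to the 90th percentile, and the dotted line is the minimum of 2. The SW480 mock medians of the 565 regions, 1.47 to 2.03, lie near that line.

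Among the 3 limits, the one over the input was missed most often in SW480 mock cells. At the strongest bin, 518 of the 565 regions had fewer than 2 SW480 mock libraries past the input limit, 347 fewer than 2 past the minimum of 2 and 294 fewer than 2 past the limit over the surroundings. All limits were missed at 238 regions, and the input limit alone at 168. The minimum alone was missed at 33 and the surroundings alone at 8. In any bin of the region, 384 had no SW480 mock library past all limits, 176 had 1, and 5 had 2 libraries that passed in different bins.

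The SW480 mock input itself was raised at these regions. Its median signal was 0.667 against 0.443 in the surrounding 10 kb, while the SW480 ERβ input had 0.450 against 0.379, the HT29 mock input 0.490 and the HT29 ERβ input 0.513. At the promoters among the 565 regions the SW480 mock input reached 0.820 and the SW480 ERβ input 0.468. The excess was also present at the regions bound in all 4 groups, with 0.650 and 0.462, and over all 6420 regions, with 0.610 and 0.442. At the regions bound in HT29 mock and SW480 ERβ alone the 2 inputs had 0.754 and 0.487. A raised SW480 mock input was thus not particular to the 565 regions. By the methods the ERβ inputs belong to another set of libraries, so set and ERβ status cannot be told apart in the inputs. When the SW480 mock libraries were set against the SW480 ERβ input, 146 of the 565 regions were bound in SW480 mock cells, 419 stayed below its limits, and the rule gave 427 regions in all. With no limit over the input in any group, 177 of the 565 were bound in SW480 mock cells. Both settings were chosen after the data were seen.

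The 168 regions that missed the input limit alone were set apart by their SW480 mock input, so that their higher signal and input in SW480 mock are fixed by the split. That input was also highest at promoters over all 6420 regions (median 0.759, beside 0.560 in introns and 0.532 between genes), so the position of the 168 is not independent of the split and is given as a description. Promoters made up 61.3% of them (53.5 to 68.7) and 28.5% (24.1 to 33.2) of the other 397. Their median SW480 mock signal was 2.85 and that of the other regions 1.51, and their median SW480 mock input was 0.948, against 0.510 in the SW480 ERβ input at the same regions. The κB share was 67.3% and 68.3%. At the other end stood 55 regions at which the SW480 mock mean was under 2 times its surroundings. There the median signal was 0.627 in SW480 mock, 2.92 in SW480 ERβ and 4.72 in HT29 mock, and 14 of the 55 were promoters (25.4%, 14.7 to 39.0).

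**Figure D4:**
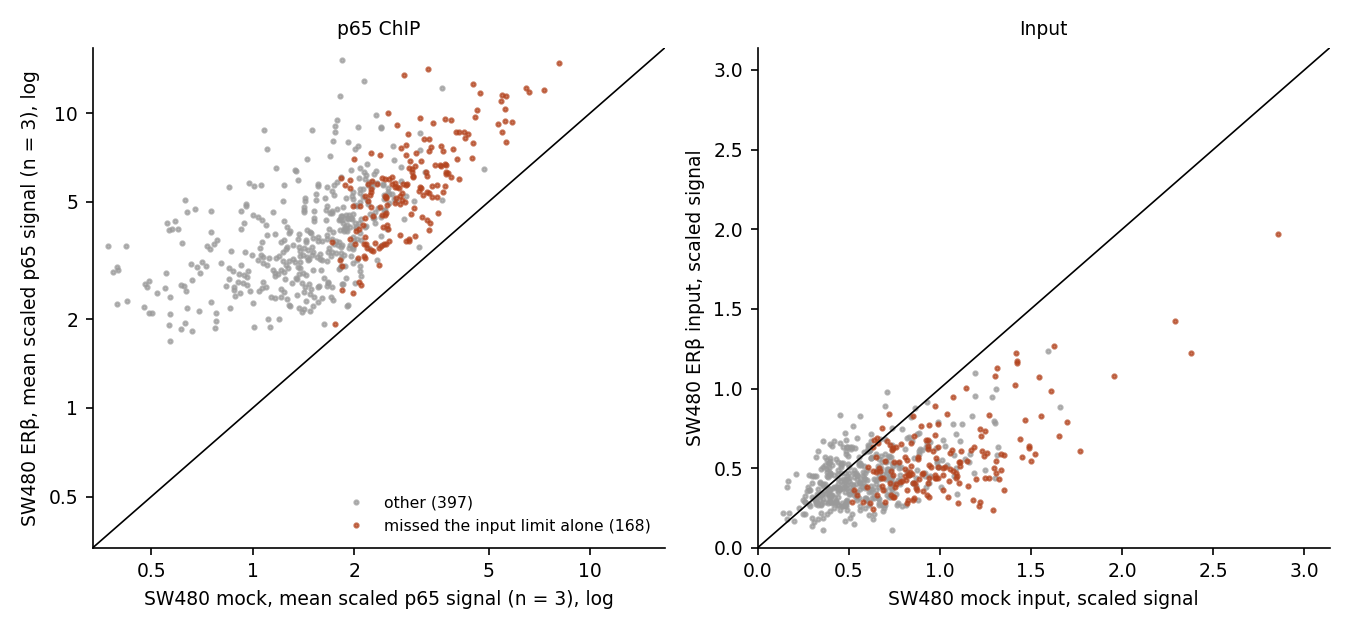
Signal of SW480 mock (horizontal axis) against SW480 ERβ (vertical axis) at the 565 regions, as the mean of 3 p65 ChIP libraries on log axes (left) and as the single input library of each group on linear axes (right), with the line of equal values. Red points are the 168 regions that missed the input limit alone, grey points the other 397. Nearly all regions lie above the line in ChIP, and most red points lie below it in the inputs.

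The distance to the limits was short at many regions. A library's multiple of its limits is its signal over the highest of the 3 limits, and a region is bound where the second-highest library reaches 1. Its median over the 565 regions was 0.662 in SW480 mock cells, and it was at least 0.5 at 411 regions, at least 0.75 at 202 and at least 0.9 at 80. The 3 regions just inside were at TMTC2, TAF4B, a subunit of the general transcription factor TFIID, and the pseudogene RAET1K, with multiples of 0.998, 0.998 and 0.995. The 3 just outside, which counted as bound in all 4 groups, were at the SSUH2 locus, ALG9 and ALDH5A1, with 1.001, 1.002 and 1.002. SW480 mock signals of 1.89, 2.34 and 2.00 at TAF4B overlapped with those at ALDH5A1, which were 2.01, 1.57 and 2.86.

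On the scale of log2(signal + 1), the SW480 ERβ mean exceeded the SW480 mock mean at 564 of the 565 regions, beside 6270 of all 6420. The median difference at the 565 regions was 0.82. All 3 SW480 ERβ libraries lay above all 3 SW480 mock libraries at 325 of them, or 57.5%, beside 53.5% of all 6420 regions. The median difference over all regions was 0.70, and 0.65 over the regions bound in all 4 groups. The rule used this contrast, and nothing is read from these shares. Each library was also scaled to the same median at the regions bound in all 4 groups. The median over all regions then moved to 0.12 and that of the 565 to 0.21. A difference above 0 was then found at 4168 of the 6420 regions and at 425 of the 565. On that scale all 3 SW480 ERβ libraries lay above all 3 SW480 mock libraries at 171 of them, or 30.3%, beside 22.3% of all regions, from which again nothing is read.

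Whether ERβ changed p65 signal in HT29 cells, where the rule required binding in both groups, was tested by limma over all 6420 regions, all 565 among them. It called 0 of the 565 regions at an adjusted p under 0.05 in either direction, and 0% of all regions. At an unadjusted p under 0.05 there was 1 of the 565 (0.177%), beside 1.57% of all regions. With the replicate number as a block there were 69 (12.2%), beside 10.6% of all regions, and that fit also called 0. The median log2 difference was -0.22 at the 565 regions, -0.15 over all regions and -0.23 over those bound in all 4 groups. All 3 HT29 ERβ libraries lay below all 3 HT29 mock libraries at 4 of the 565, or 0.708%, beside 3.83% of all regions, and above them at 0, beside 1.07%. The rule kept only regions that passed in both HT29 groups, which leaves out regions bound in just one of them, so nothing is read from the gap between the shares of the 565, at either p threshold too, and those of all regions. The median turned to 0.04 without HT29 mock replicate 1 and to 0.02 under the equal scaling of libraries, and was -0.48 without HT29 ERβ replicate 1. In each pair of libraries with the same number, the median at the 565 regions was lower in HT29 ERβ than in HT29 mock, and so was that at the regions bound in all 4 groups (7.67 against 9.15, 3.83 against 4.54 and 3.68 against 4.89). No single region passed the threshold, which does not show that its signal was equal.

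SW480 ERβ cells were compared with HT29 ERβ cells by the same fit, since both passed the rule at every region. limma called 60 of the 565 regions higher in SW480 ERβ (10.6%), beside 55.1% of all regions, and 32 lower (5.66%), beside 8.58%. The rule required binding in both of these groups, whereas 3334 of the 6420 regions passed in SW480 ERβ alone, so the rule itself sets these shares apart and nothing is read from the gap. The median log2 difference was 0.14 at the 565 regions and 0.80 over all. Libraries scaled to the same median at the regions bound in all 4 groups gave 19 higher (3.36%) and 280 lower (49.6%) among the 565, beside 38.5% and 20.9% of all regions, with a median of -0.46, and moved the median over all regions to 0.25. The count of 92 regions called in either direction (16.3%, beside 63.7% of all regions) was 145 without HT29 ERβ replicate 1 (25.7%, beside 70.5%). Of these, 134 were higher (23.7% of the 565, beside 64.3% of all regions). The count was 47 without SW480 ERβ replicate 3 (8.32%, beside 53.1%). It was 54 and 61 without HT29 ERβ replicate 2 or 3 (beside 53.6% and 55.1% of all regions), and 56 without SW480 ERβ replicate 2 (beside 52.3%). Lower calls outnumbered higher ones without HT29 ERβ replicate 2 (30 and 24) or 3 (37 and 24) and without SW480 ERβ replicate 2 (36 and 20) or 3 (25 and 22). In these fits 44% to 45.8% of all regions were called higher and 7.94% to 9.25% lower. Without SW480 ERβ replicate 1 there were 15 lower and 117 higher, beside 7.07% and 64% of all regions. Which direction had more calls among the 565 thus depended on the scaling and on single libraries.

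The 8 regions with the largest SW480 difference were at PCAT1, LINC00677 beside TNFAIP2, TGM2, PPARD, TANC1, ABHD16B, TNFRSF4 and ENSG00000287815 upstream of CLIP2. They were named by the gene with the nearest TSS. The region at PCAT1, a long noncoding RNA, lay in an intron on chromosome 8. HT29 mock signal there was 25.2, 14.3 and 15.9, and HT29 ERβ signal 24.9, 15.1 and 14.2. SW480 mock had 1.81, 2.29 and 1.42 and SW480 ERβ 13.4, 19.6 and 12.5, a log2 difference of 2.49, or 1.80 when libraries were scaled to the same median at the regions bound in all 4 groups. Under that equal scaling the 8 differences ran from 1.22 to 1.80. SW480 mock alone was low, with no overlap with any other group. The inputs also differed between the lines here, with 1.85 and 1.61 in HT29 mock and HT29 ERβ and 0.528 and 0.444 in SW480 mock and SW480 ERβ, and their part in the difference between the lines was not tested.

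At LINC00677 (chr14:103122401-103122600), in the promoter region of TNFAIP2, a gene named for its response to TNFα, the signal was 0.840, 1.09 and 1.31 in SW480 mock and 7.03, 8.995 and 10.3 in SW480 ERβ. In HT29 cells it was 5.32, 2.10 and 3.11 in mock and 3.65, 2.10 and 2.31 in ERβ. SW480 ERβ was here above every HT29 library, whereas SW480 mock was below every one.

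The TGM2 region (chr20:38134801-38135000) lay in an intron of the gene for transglutaminase 2, an enzyme that crosslinks proteins. SW480 mock signal was 0.923, 2.09 and 3.41 and SW480 ERβ signal 9.50, 14.9 and 14.0. HT29 mock had 8.59, 4.41 and 3.29, so that the highest SW480 mock library overlapped with HT29.

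PPARD encodes a nuclear receptor for fatty acids. Its intronic region (chr6:35368201-35368400) gave 1.93, 1.46 and 2.05 in SW480 mock and 7.86, 14.8 and 11.6 in SW480 ERβ, and 2.55, 3.85 and 1.91 in HT29 ERβ. SW480 mock reached 0.965 of its limits here and overlapped with HT29.

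At TANC1, which encodes a scaffold protein of synapses, the values were 0.370, 1.37 and 1.55 in SW480 mock, 6.87, 9.02 and 6.84 in SW480 ERβ, 12.02, 5.37 and 6.36 in HT29 mock and 7.24, 5.25 and 4.70 in HT29 ERβ. SW480 mock was the only group apart from the others. At TNFRSF4, the gene of the T cell costimulatory receptor OX40, SW480 mock had 1.39, 1.17 and 1.93 and SW480 ERβ 5.01, 10.1 and 11.2. HT29 mock had 4.51, 1.52 and 2.67 there and overlapped with SW480 mock.

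The ABHD16B region (chr20:63854001-63854200) and the region upstream of CLIP2 (chr7:74284801-74285000) had log2 differences of 1.93 and 1.90 between the SW480 groups, and of 1.22 and 1.23 with equal scaling. Each held at least 2 κB matches. SW480 mock signal was 1.91, 2.89 and 3.60 at the former and 1.88, 1.21 and 2.26 at the latter, and SW480 ERβ signal was 10.5, 15.5 and 14.2 and 6.94, 10.1 and 11.4. The SW480 groups did not overlap at either.

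The highest SW480 ERβ signal among the 565 also included UPP1, GXYLT2 and GSTP1. UPP1 encodes uridine phosphorylase, which breaks down uridine. At its promoter (chr7:48088601-48088800) SW480 mock had 4.76, 8.05 and 11.5 and SW480 ERβ 7.80, 17.7 and 18.8, and the groups overlapped. The SW480 mock input was 2.85 here and the SW480 ERβ input 1.97, and with equal scaling the log2 difference fell from 0.77 to 0.01.

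GXYLT2 encodes a xylosyltransferase of the Notch pathway. Its intronic region (chr3:72973201-72973400) had 1.59, 2.95 and 5.38 in SW480 mock and 9.71, 16.9 and 15.6 in SW480 ERβ, which did not overlap. HT29 mock had 6.40, 4.92 and 2.09 and HT29 ERβ 3.85, 2.19 and 2.63, all below SW480 ERβ, for whose level the region was named. SW480 mock overlapped with both HT29 groups. The log2 difference between the SW480 groups was 1.869, and 1.155 with equal scaling.

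GSTP1 encodes a glutathione transferase that detoxifies electrophiles. The bin shown above, centred at -242 bp from its TSS, had 5.07, 4.07 and 4.34 in SW480 mock and 6.97, 16.2 and 14.5 in SW480 ERβ. HT29 mock had 17.5, 9.41 and 8.54. SW480 mock signal was thus over the minimum of 2 in every library and 6.34 times its surroundings, and it missed the input limit in 2 of 3 libraries against an input of 1.15. The SW480 ERβ input was 0.547, and with equal scaling the log2 difference fell from 1.23 to 0.49.

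**Figure D5:**
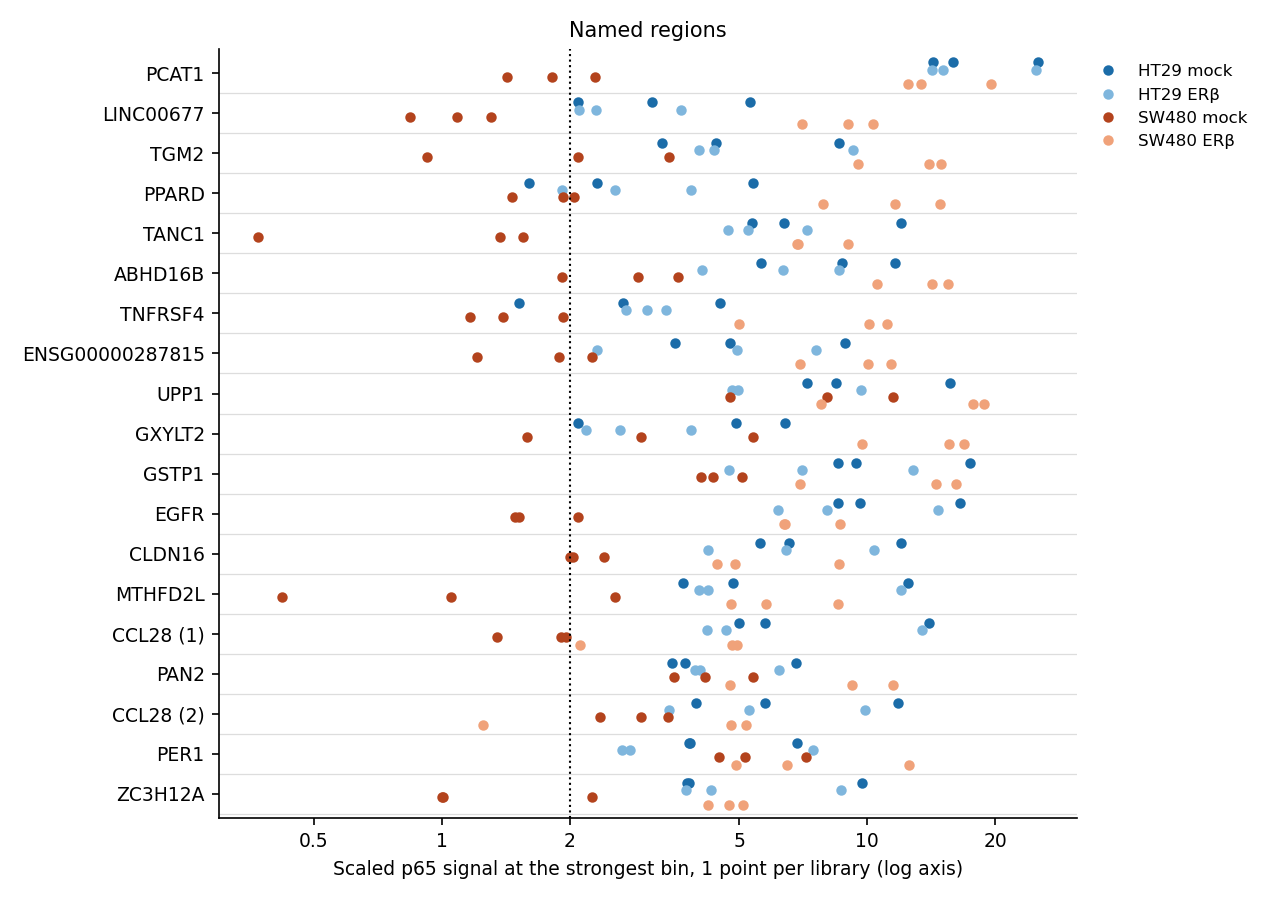
Scaled p65 signal at the strongest bin (log axis), 1 point per ChIP library, for the named regions with the largest SW480 difference, the highest SW480 ERβ signal or a gene of the lists. Of the last, those described in the text are drawn. The dotted line is the minimum of 2. The 3 SW480 mock points lie to the left of the other groups at PCAT1, TANC1 and EGFR, and among them at PER1 and PAN2. Where a gene has 2 regions, they are numbered by rank of signal in the other 3 groups.

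Genes of 9 lists drawn from NFκB biology were counted when a region lay from 50 kb before to 2 kb after one of their TSS. Of 204 genes, 26 had one of the 565 regions in that reach (12.7%), beside 4% of the 19962 protein-coding genes, and 52 had a region bound in all 4 groups, beside 794 of all protein-coding genes. For 20 of the 26, no region bound in SW480 mock cells lay in the same reach, beside 713 of the 798 protein-coding genes with one of the 565 regions. The lists were chosen with earlier results of these data known, so nothing is read from the gaps to all protein-coding genes.

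For each list, the number of genes with a region bound in all 4 groups stands beside that with one of the 565. Among NFκB subunits and feedback inhibitors, 2 of 18 genes had one of the 565 regions (TNIP1, an adaptor that restrains NFκB, and ZC3H12A, an RNase that degrades inflammatory transcripts), while 15 had a region bound in all 4 groups. TNIP1 and ZC3H12A both had another region bound in SW480 mock. Among kinases and adaptors it was 2 of 24, TRAF1 and TRAF2, which link TNF receptors to IκB kinase, with 6 for the regions bound in all 4 groups. Among chemokines and cytokines it was 5 of 29 (CXCL2, CX3CL1, CCL28, IL1A and IL23A), with 10. A region bound in SW480 mock was also in reach of TRAF2, CXCL2 and IL23A. For the interferon and antigen presentation list the counts were 4 of 26, among them IRF3, IRF9 and STAT3, with 4. In survival and death genes it was 3 of 21 (XIAP, CFLAR and CASP10), with 5, and in AP-1 and early genes 3 of 21 (JUN, MAFF and KLF6), with 3. Clock genes gave 2 of 19, among them PER1, with 4, adhesion and junction genes 4 of 24, among them CLDN1, ITGB6 and LAMB3, with 4, and the MAP kinase phosphatase and EGFR list 1 of 22 (EGFR), with 1.

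EGFR is the receptor tyrosine kinase for EGF. The region shown above lay in an intron, at -44423 bp from the nearest annotated TSS of the gene. HT29 mock signal was 16.6, 9.63 and 8.54 and HT29 ERβ signal 14.6, 8.04 and 6.17, while SW480 mock had 1.49, 1.52 and 2.09. SW480 ERβ had 6.40, 8.62 and 6.39, a mean of 7.14 ± 1.28 (SD, n = 3) against 1.70 ± 0.34. The log2 difference was 1.59, and 0.94 with equal scaling. SW480 mock was apart from the other 3 groups, which overlapped, and both SW480 inputs were alike here with 0.866 and 0.880.

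CCL28, a chemokine of mucosal epithelia, also had 2 regions. The one between genes had 13.9, 4.997 and 5.77 in HT29 mock, 13.5, 4.65 and 4.199 in HT29 ERβ, 1.35, 1.90 and 1.96 in SW480 mock and 2.11, 4.80 and 4.95 in SW480 ERβ. SW480 ERβ replicate 1 lay just above SW480 mock there. At the intronic region (chr5:43402601-43402800) SW480 mock had 3.41, 2.94 and 2.35 and SW480 ERβ 1.25, 5.18 and 4.79, so the groups overlapped, and the log2 difference turned from 0.16 to -0.50 under equal scaling, and to -0.10 and -0.06 without SW480 ERβ replicate 2 or 3. With equal scaling the difference at the region between genes was 0.19 in place of 0.81.

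The region in reach of CXCL2, a neutrophil chemokine, lay in an intron of MTHFD2L (chr4:74117001-74117200) and held no κB match. HT29 mock had 12.5, 3.69 and 4.83 there, SW480 mock 1.05, 2.56 and 0.420 and SW480 ERβ 4.78, 8.54 and 5.79, and both SW480 inputs were low with 0.35 and 0.277. The groups of SW480 did not overlap. Another region bound in SW480 mock cells lay 17601 bp from this one. IL23A, a subunit of interleukin 23, was reached from the promoter of PAN2, a deadenylase (chr12:56333801-56334000). Another region bound in SW480 mock cells lay 4401 bp from the PAN2 promoter region. At that promoter SW480 mock had 3.52, 4.17 and 5.39 and SW480 ERβ 4.77, 11.5 and 9.23, which overlapped, and SW480 mock overlapped with HT29 mock, which had 6.79, 3.49 and 3.73. The log2 difference there was 0.77, and 0.05 with equal scaling.

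PER1 is a repressor of the circadian clock. Its promoter (chr17:8156601-8156800) had a log2 difference of 0.37 between the SW480 groups, which turned to -0.35 under equal scaling and was 0.03 without SW480 ERβ replicate 2. SW480 mock had 5.17, 7.18 and 4.49, HT29 mock 6.83, 3.804 and 3.84, HT29 ERβ 7.48, 2.77 and 2.66 and SW480 ERβ 4.92, 12.6 and 6.49. All 4 groups overlapped, and 2 of the 3 SW480 mock libraries missed the limit over an input of 1.55.

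Claudin 1, encoded by CLDN1, belongs to tight junctions. The region in reach of CLDN1 lay in an intron of CLDN16 (chr3:190345401-190345600) and had 2.04, 2.01 and 2.41 in SW480 mock, 4.45, 8.58 and 4.90 in SW480 ERβ and 12.02, 6.54 and 5.60 in HT29 mock. SW480 mock was apart from the other groups named.

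ZC3H12A had an intronic region (chr1:37477401-37477600) at -2499 bp from its nearest TSS, with 1.01, 1.00 and 2.25 in SW480 mock and 4.74, 4.22 and 5.11 in SW480 ERβ. HT29 mock had 9.73, 3.77 and 3.81 and HT29 ERβ 8.69, 4.30 and 3.75. The SW480 mock mean was 1.99 times its surroundings, the lowest of the named regions, and SW480 mock was apart from the other 3 groups. The log2 difference between the SW480 groups was 1.27, and 0.68 with equal scaling. Another region bound in SW480 mock cells lay 2001 bp away, inside the 10 kb taken as surroundings. The low ratio therefore does not show an empty locus, and the part of that neighbour in it was not tested.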

How the data were processed

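p65 ChIP-Seq tracks of 12 ChIP and 4 input libraries were read. The authors aligned unique reads to GRCh38 with STAR and deposited HOMER coverage signal per base for 10 M tags per library (M, 1e6) of 100 bp each, in which values under 0.05 are absent. Since the signal is scaled to a common total, depth was unknown from the tracks, and no count test was run and no counting interval on a signal computed.

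Signal was averaged over 200-bp bins of chromosomes 1 to 22 and X (pandas 2.3.3, numpy 2.4.6 and numba 0.67.0 under Python 3.11.15) and read for each region at the bin with the highest mean over the 12 ChIP libraries. The surrounding 10 kb left out the bin and 1 bin on either side. limma 3.58.1 (R 4.3.3) with a mean-variance trend was fitted to log2(signal + 1) of all 12 ChIP libraries over all 6420 regions, with Benjamini-Hochberg adjustment, and was tested on simulated data. Libraries that shared a replicate number deviated together in each line (correlations of 0.583, 0.234 and 0.278 in HT29, and 0.309, 0.132 and 0.229 in SW480), so a fit with replicate number as block was added. In HT29, mock replicate 2 correlated slightly more with ERβ replicate 3 (0.271) than with its own number, and mock replicate 3 with ERβ replicate 2 at 0.176, so there the numbers mainly set replicate 1 apart from the others. The pairing is read from these correlations, as the labels name no shared batch.

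Shares carry 95% Clopper-Pearson intervals (scipy 1.17.1). Genes came from GENCODE release 44, and sequences from GRCh38 by pysam 0.24.0. Figures used matplotlib 3.10.9. Named regions are the 8 with the largest SW480 difference, the 6 with the highest SW480 ERβ mean, up to 12 in reach of list genes by mean signal in the other 3 groups, and 3 on either side of the limits. A further part of that rule, regions called by limma in HT29 cells, named none. The regions, gene lists and tests were chosen with earlier results of these data known. Other limits, inputs, scalings, pseudocounts, windows and sets of libraries were tried as alternatives. Results for some named regions are not reported here.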

Additional observations from a re-analysis of the deposited data

How the results depend on the processing

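The count of 565 regions depended on the limits. It was 323 at a minimum of 3, 309 at 6-fold over the input, 372 at 6-fold over the surroundings and 269 when all 3 libraries had to pass (260, 207, 312 and 178 of them among the 565), and 311 to 704 with 1 library left out (311 without HT29 ERβ replicate 1, 351 and 357 without SW480 ERβ replicate 2 or 3). Where a library was left out, both remaining libraries of its group had to pass, which is stricter than 2 of 3. The count rose to 621, 704 and 701 without SW480 mock replicate 1, 2 or 3, and fell without any other library. A grid moved by 100 bp gave 567, of which 405 were among the 565. With libraries scaled to equal medians at the regions bound in all 4 groups, the rule gave 412 regions, of which 291 were among the 565 (51.5% of the 565), while 107 of the 565 were bound in SW480 mock, the median SW480 difference was 0.21 in place of 0.82, 171 rather than 325 regions had SW480 groups apart (22.3% rather than 53.5% of all regions), and limma called 299 rather than 92 regions between the ERβ lines (59.3% rather than 63.7% of all regions). That last count was 47 to 145 with 1 library left out (52.3% to 71.0% of all regions). In HT29 cells limma called 0 under every alternative, with the replicate block too. Against the SW480 ERβ input, an alternative chosen after the data were seen, as was the count of groups apart under other settings, 31 rather than 168 regions missed the input limit alone. The promoter share of 38.2% was 31.0% with protein-coding transcripts and 49.7% with a wider promoter, and the κB share of 68.0% was 80.2% over the whole region, 39.8% in the central 100 bp and 94.3% with 1 mismatch allowed. At the 29 named regions on either side of the limits, 7 of 261 alternative values of the SW480 difference were below 0, of which 5 came from equal scaling, among them those of the intronic CCL28 region, PER1 and TAF4B. The cause of these shifts was not tested. Depth was not read from the scaled tracks, and a region below the limits in SW480 mock cells may still hold binding that these libraries could not show.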
